A study of Mus musculus with 28 samples.

Results

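The response of the liver to oral nicotinamide mononucleotide (NMN) was set against the response of the kidney in the 16 of 28 RNA-seq libraries that the labels give to the schedule of 1340 mg/kg/d, the schedule gavaged once per day. The quantity described is the NMN effect in liver minus the NMN effect in kidney, on the log2 scale, for every gene counted well enough in both organs, which left 11929 of the 54446 genes listed. Livers and kidneys came from male C57BL/6 mice (C57BL6J in the study's methods) aged 8 weeks that received NMN in sterile water, or water alone, by gavage for 7 days. There were 4 libraries of liver with NMN, 4 of liver with water, 4 of kidney with NMN and 4 of kidney with water. The question was which genes responded in 1 organ only, which moved in opposite directions and which moved alike in both. Nothing in the labels says whether the liver and the kidney library of the same number came from 1 mouse.

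NMN is a precursor from which cells make NAD+, the cofactor of oxidation and reduction and the substrate of the sirtuins. The liver takes up much of what the gut absorbs, and it stores, oxidizes and exports fat. It does so in part under PPAR-alpha, a nuclear receptor for fatty acids that switches on oxidation genes in fasting. The kidney filters the blood and recovers salts, sugars and amino acids along its tubules, and its proximal tubule also burns fatty acids and makes ammonia from glutamine. Both organs carry a circadian clock and both respond to glucocorticoids, so a treatment can reach the same gene by common signals or by signals of 1 organ.

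Counted reads ran from 12688324 to 16455228 in the livers and from 13174264 to 15696435 in the kidneys. Every NMN kidney library was smaller than every water kidney library. The hepatocyte markers, with Alb as the most abundant, summed to 161600 ± 22600 counts per 1000000 counted reads (CPM, SD, n = 4) in NMN livers and 161300 ± 20700 in water livers. Their sum in the kidneys was 333.5 and 302.2 CPM. The proximal tubule markers, with Kap first, summed to 21600 CPM in NMN kidneys and 27600 in water kidneys, so the tissue labels and the marker genes named the same organs. CPM here are counts divided by library sizes scaled over all 16 libraries, and a level in liver can be set against one in kidney only as far as that scaling holds.

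Some libraries stood apart. In NMN liver replicate 4, 12.77% of reads fell outside annotated genes, against 4.906 to 7.442% in the other livers. Arntl, which encodes the clock activator BMAL1, stood at 28.5 CPM in water liver replicate 1 and at 1.28 to 5.34 in the other water livers, and at 23.3 CPM in water kidney replicate 1 against 4.18 to 5.21. The counts of genes that passed for each contrast, and the list counts and named calls that changed most, are therefore also given without these 3 libraries, a choice made after their values were seen. Their part in the results was otherwise not tested. Without them, the NMN livers left had Arntl at 19.7 to 20.4 CPM and the water livers left at 1.28 to 5.34. In that fit the NMN effect in liver, and with it the difference between organs, cannot be told apart from the Arntl level. This holds for every gene and list given without the 3 libraries.

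The difference between the organs passed an adjusted p of 0.05 in edgeR's quasi-likelihood test for 2 genes, Il1r1 and C9, which is 0.0168% of the genes tested, with 1 in each direction (0.00838%). In the liver alone 71 genes passed (0.595%), 42 higher and 29 lower with NMN, and in the kidney alone 3 passed (0.0251%), 2 higher and 1 lower (0.00838%). No gene passed in both organs in edgeR's test with all 16 libraries, while Fkbp5 did in limma voom and Fkbp5, Paqr7 and Zbtb16 did in DESeq2, each with the same sign in both. At an unadjusted p under 0.05 the same tests held 620 genes for the difference (5.2%), 1351 for the liver (11.3%) and 499 for the kidney (4.18%). Without the 3 libraries that stood apart, 46 genes passed for the difference (0.386%), 210 for the liver (1.76%) and 4 for the kidney (0.0335%). The count for the difference also rested on single libraries, since it was 11 without NMN liver replicate 4 and 10 without water liver replicate 1, and 0 without any 1 of 10 others. DESeq2, which estimates its spread in another way, passed 27 genes. It placed 19 of them in liver only, 6 in kidney only and 2 in opposite directions. On simulated data 14% of the DESeq2 calls for the difference were false, against 7.14% of the edgeR calls.

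The spread between replicates was larger in liver, with a biological coefficient of variation of 24.1%, than in kidney, with 14.8%. A single fit over both organs shares 1 spread (19.5%) and so gives the livers a smaller error than their own. Fitted apart, 2 genes passed in liver, Il1r1 and Scara5, so that every other liver call given below was lost there, and 8 passed in kidney, and limma voom with a weight for each organ passed 24 and 30. Of the 30 genes named here that passed in liver, 15 did not in limma voom, with adjusted p from 0.0528 to 0.571, namely Acot1, Adprh, Blnk, Clic5, Cyp4a14, Ddo, Fosl2, Gm15318, Il6ra, Junb, Sesn2, Slc22a5, Slc23a1, Sulf2 and Umps. The order of the counts of the organs thus depended on the fit. The groups of an organ did not overlap for 422 genes in liver (3.54%), 204 higher (1.71%) and 218 lower (1.83%) with NMN, and for 619 in kidney (5.19%), 272 higher (2.28%) and 347 lower (2.91%). The SD of the NMN effect over all genes was 0.35 in liver and 0.24 in kidney on the log2 scale, with medians of -0.0155 and 0.000672.

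**Figure D1:**
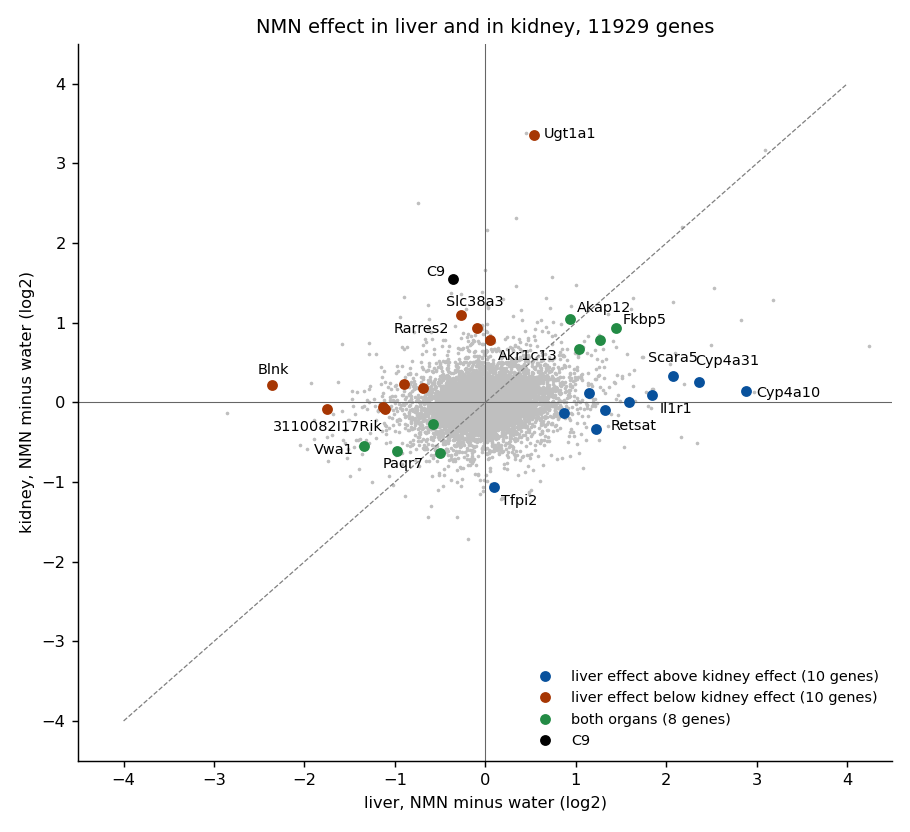
Each point is 1 of 11929 genes, with the NMN effect in liver on the x axis and in kidney on the y axis (both NMN minus water, log2); the dashed line marks equal effects. Cyp4a10, Cyp4a31, Scara5 and Il1r1 lie far to the right at kidney effects between 0.09 and 0.33, Rarres2, Slc38a3 and C9 lie above 0.9 on the kidney axis at liver effects below 0, and Fkbp5 and Akap12 lie near the dashed line.

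The upstream sequences below belong to 1 gene of each pattern of response and are shown so that the patterns can be set beside the DNA before the gene: Il1r1 for liver only, Akr1c13 for a call in kidney whose difference between organs did not pass, C9 for opposite signs and Fkbp5 for a mean over both organs that passed. They are the 250 bases before the annotated start, 5′ to 3′ on the gene's strand, from RefSeq on GRCm38.p6. Capitals mark exact matches on either strand to 1 of 6 motifs searched, namely the E-box CACGTG bound by BMAL1 and CLOCK, the D-box TTATGNAA, the FOXO element GTAAACA, the antioxidant response element TGACNNNGC, a direct repeat of the kind PPAR-alpha binds, in which 2 copies of AGGTCA stand 1 base apart, and the glucocorticoid response element, in which AGAACA and TGTTCT stand 3 bases apart. The first of 2 annotated starts is shown for Il1r1.
Il1r1, chr1:40224830-40225079, plus strand: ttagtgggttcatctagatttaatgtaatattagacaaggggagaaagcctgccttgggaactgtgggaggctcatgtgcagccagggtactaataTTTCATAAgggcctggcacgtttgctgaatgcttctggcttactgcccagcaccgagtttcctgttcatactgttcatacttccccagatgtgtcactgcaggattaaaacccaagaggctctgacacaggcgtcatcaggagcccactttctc
Akr1c13, chr13:4190937-4191186, plus strand: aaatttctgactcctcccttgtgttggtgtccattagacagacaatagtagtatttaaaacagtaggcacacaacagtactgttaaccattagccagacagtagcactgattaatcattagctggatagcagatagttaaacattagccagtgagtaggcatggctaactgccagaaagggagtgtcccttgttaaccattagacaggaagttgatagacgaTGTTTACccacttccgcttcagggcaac
C9, chr15:6445096-6445345, plus strand: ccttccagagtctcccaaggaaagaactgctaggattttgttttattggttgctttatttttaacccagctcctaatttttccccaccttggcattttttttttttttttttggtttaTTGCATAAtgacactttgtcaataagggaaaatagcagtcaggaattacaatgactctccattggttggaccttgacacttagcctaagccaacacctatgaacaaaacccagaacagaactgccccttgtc
Fkbp5, chr17:28486150-28486399, minus strand: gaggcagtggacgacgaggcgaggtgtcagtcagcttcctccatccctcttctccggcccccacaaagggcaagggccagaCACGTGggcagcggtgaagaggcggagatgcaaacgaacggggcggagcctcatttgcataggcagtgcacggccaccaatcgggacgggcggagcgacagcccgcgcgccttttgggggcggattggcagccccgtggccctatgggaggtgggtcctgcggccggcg
The capitals are a D-box in Il1r1 and C9, a FOXO element in Akr1c13 and an E-box in Fkbp5. The second start of Il1r1 held no match, and neither did any start of Tfpi2, another gene called in kidney. Over all 27025 genes with an entry the D-box was found in 3.63%, the FOXO element in 3.54%, the E-box in 6.86% and the antioxidant response element in 11.5%. The 20 leading genes named here are the 10 with the smallest p for the difference in each direction among genes with at least 1 CPM on average in both organs. Of these 14 had an entry, and among them the E-box occurred in 2, the antioxidant response element in 3, the D-box in 1 and the FOXO element in 1. The direct repeat and the glucocorticoid response element were in none of the 14, and they were in 0.0407% and 0.0111% of all genes with an entry. A match describes the letters of the window and no binding was measured.

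Il1r1, the signalling receptor for interleukin 1, changed in the liver only. Its level was 30.5, 33.3, 39.4 and 59.6 CPM in the water livers and 117, 197, 157 and 113 CPM in the NMN livers. It was 7.53, 6.42, 6.81 and 7.54 CPM in the water kidneys and 8.05, 7.19, 8.58 and 6.35 CPM in the NMN kidneys. The lowest NMN liver lay well above the highest water liver, while the kidney groups overlapped. The log2 effect was 1.84 ± 0.20 (SE) in liver (adjusted p = 0.000158, edgeR) and 0.09 ± 0.21 in kidney (adjusted p = 0.999), and the difference of 1.75 had a 95% interval of 1.16 to 2.35 (adjusted p = 0.0487). The exact permutation test of the difference over 4900 relabellings of the 16 libraries gave p = 0.022. The call for the difference was lost when 11 of the 16 libraries were left out in turn, with adjusted p up to 0.146, it was lost with DESeq2's size factors (adjusted p = 0.0505, edgeR), and it held in the fit without the 3 libraries that stood apart (adjusted p = 0.0122, edgeR). Il6ra, the receptor of interleukin 6, rose in liver by 0.96 ± 0.21 (adjusted p = 0.0479, edgeR, and 0.0599 in limma voom) and stood at 0.20 ± 0.24 in kidney, a difference of 0.76 ± 0.32 that did not pass.

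Among the genes with a higher effect in liver, the next in order of p were cytochromes of fatty acid omega-oxidation, in which the far end of the fatty acid is hydroxylated and then oxidized to a dicarboxylic acid. Cyp4a10 stood at 81, 190, 301 and 183 CPM in water livers and at 1154, 1810, 1758 and 833 CPM in NMN livers. In kidney it stood at 214, 325, 319 and 257 CPM with water and 318, 407, 225 and 280 CPM with NMN. All NMN livers lay above all water livers and the kidney groups overlapped. The liver effect was 2.88 ± 0.35 (adjusted p = 0.00133, edgeR), the kidney effect 0.14 ± 0.33, and the difference 2.74 ± 0.47 did not pass at an adjusted p of 0.0724. It passed without the 3 libraries that stood apart, at 2.77 and an adjusted p of 0.00191 (edgeR). Cyp4a31 rose in liver by 2.36 ± 0.29 (adjusted p = 0.00113, edgeR), from 4.34 to 13.1 CPM with water to 21.8 to 56.7 CPM with NMN, and had a kidney effect of 0.26 ± 0.25 at 247 to 354 CPM. Cyp4a14 rose in liver by 4.24 ± 0.85 (adjusted p = 0.0482, edgeR), from 9.32, 113, 202 and 159 CPM with water to 1268, 3074, 3232 and 1565 CPM with NMN, where water liver replicate 1 is the lowest and the groups did not overlap. This liver call held in 4 of the 16 fits that left out 1 library, with an adjusted p of up to 0.139 without NMN liver replicate 2, and was lost in limma voom (adjusted p = 0.101) and in separate fits (0.405, edgeR). Its difference of 3.53 ± 1.09 did not pass (adjusted p = 0.73, edgeR). These genes have near-identical neighbours, and reads that aligned to more than 1 place were not counted.

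Aldh3a2, the fatty aldehyde dehydrogenase that follows the hydroxylases, was at 173, 185, 223 and 232 CPM in water livers and 285, 400, 458 and 346 CPM in NMN livers. Its kidney levels were 157 to 174 CPM with water and 138 to 178 CPM with NMN. The effect was 0.87 ± 0.14 in liver (adjusted p = 0.00403, edgeR) and -0.14 ± 0.14 in kidney, and the difference of 1.01 ± 0.19 had an adjusted p of 0.0724. Of the 10 omega-oxidation genes tested, 9 had a difference above 0, where 49.2% of all genes did. Their median difference was 1.18 beside -0.00525 over all genes, from medians of 0.54 in liver and -0.0074 in kidney. The 4 liver calls among the 10 are those just named, where 0.352% of all genes rose in liver. Without the 3 libraries that stood apart 5 of the 10 passed in liver (1.76% of all genes) and 2 for the difference (0.386%). In liver 3 of the 10 passed in limma voom and 0 in separate fits. For the difference 1 passed in limma voom and 3 in separate fits, where 3 and 34 of all genes did. Cyp4a12a, a male-biased member, was instead lower in every NMN kidney, at 10.1 to 24.5 CPM against 36.4 to 81.7 CPM, a kidney effect of -1.71 ± 0.40 that did not pass (adjusted p = 0.471, edgeR), at a liver effect of -0.19 ± 0.38.

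Mitochondrial and peroxisomal fatty acid oxidation had a median difference of 0.226. Of 37 genes tested, 34 were above 0 in liver, with a median of 0.259, and 27 were above 0 in kidney, with a median of 0.0805, where 47.4% and 50.1% of all genes were above 0. In the liver 6 passed and all 6 rose, where 0.352% of all genes did, while 0 passed in kidney, where 0.0251% did. Without the 3 libraries that stood apart the calls numbered 9 in liver, 0 in kidney and 2 for the difference. In that fit 1.76%, 0.0335% and 0.386% of all genes passed. In liver 2 of the 37 passed in limma voom and 0 in separate fits. The 6 that rose in the single fit included Slc22a5, the carnitine transporter, Crat, carnitine acetyltransferase, and Pex11a, a peroxisome division factor. The others were Ehhadh and Acaa1b, enzymes of the peroxisomal pathway, and Acot1, an acyl-CoA thioesterase. Slc22a5 rose from 15.5 to 27.8 CPM with water to 33.3 to 52.1 CPM with NMN in liver (0.98 ± 0.17, adjusted p = 0.00805, edgeR), at a kidney effect of 0.01 ± 0.16. Crat rose in liver by 0.82 ± 0.15 (adjusted p = 0.0149, edgeR) at a kidney effect of -0.06 ± 0.15. Acot1 rose in liver by 1.85 ± 0.35 (adjusted p = 0.0242, edgeR) at 0.17 ± 0.33 in kidney. For the difference itself 0 of the 37 passed the adjusted threshold, though 4 did in separate fits, where 34 of all genes did. In the single fit 9 were above 0 and 0 below at an unadjusted p under 0.05, where 2.79% and 2.41% of all genes fell. The rate-limiting carnitine palmitoyltransferase Cpt1a had close values in the organs, 0.34 in liver and 0.23 in kidney.

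Other PPAR-alpha targets were listed apart from the oxidation genes, though both lists hold Acot1. Vnn1, a pantetheinase, stood at 13.8, 19.3, 19.3 and 31.8 CPM in water livers and 59.7, 62.4, 77.3 and 40.1 CPM in NMN livers, with no overlap, and at 76.8 to 94.1 and 80 to 125 CPM in the kidneys, which overlapped. The effect was 1.51 ± 0.22 in liver (adjusted p = 0.00299, edgeR) and 0.33 ± 0.21 in kidney. Of the 24 genes tested in this list, Vnn1 and Acot1 rose in liver, where 0.352% of all genes did, and 0 passed in kidney. The median difference was 0.165. Without the 3 libraries that stood apart it was 0.36, with 5 calls in liver and 1 for the difference. In that fit 1.76% and 0.386% of all genes passed. In liver 1 of the 24 passed in limma voom and 0 in separate fits. For the difference 1 of the 24 passed in separate fits, where 34 of all genes did. The kidney values of Pdk4, which blocks pyruvate oxidation, and of Txnip, a redox regulator, were 1.57 and 0.98, above their liver values of 0.74 and 0.84, and none of these passed.

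**Figure D2:**
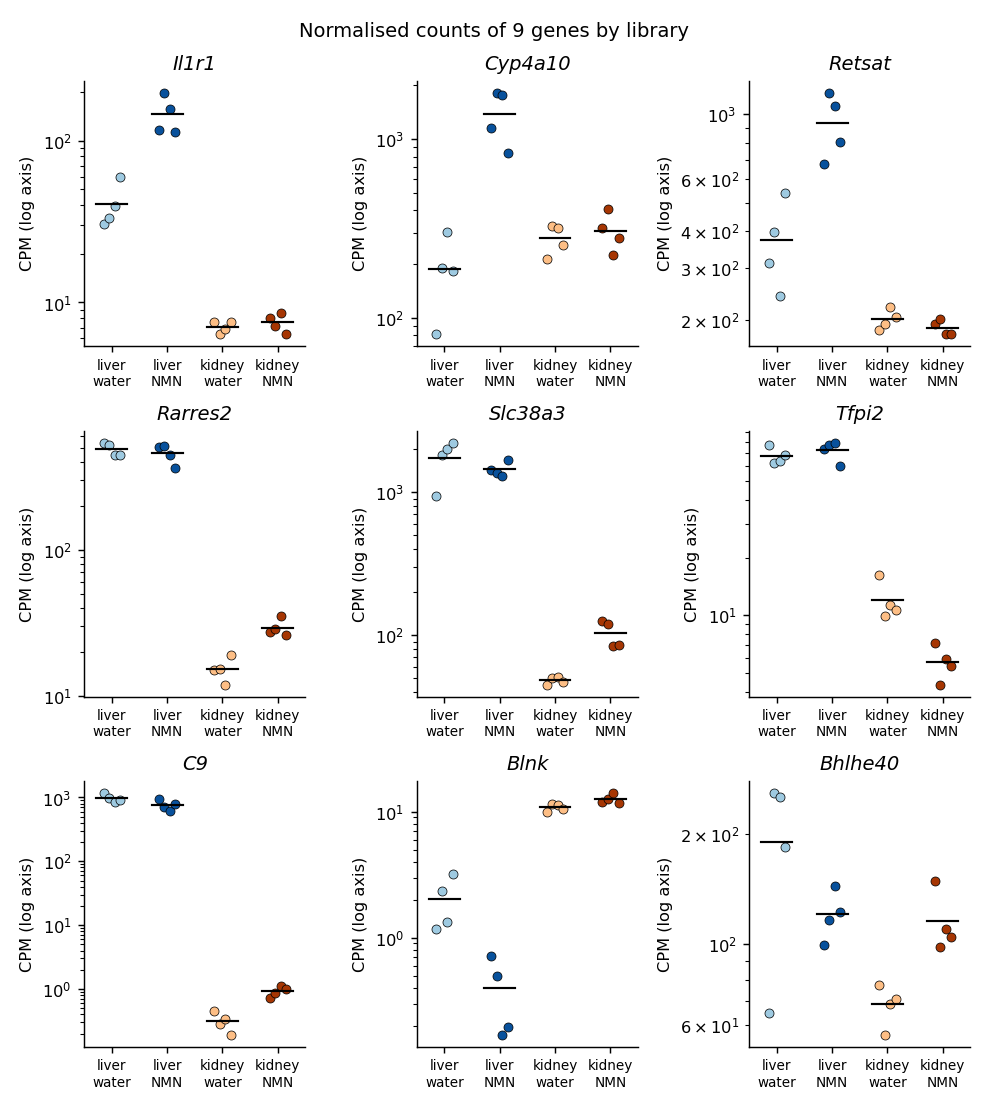
Normalised counts (CPM, log axis) of 9 genes in the 16 libraries, each point 1 library and each bar the mean of 4. The NMN livers of Il1r1, Cyp4a10 and Retsat lie above all water livers while their kidney groups overlap, and the NMN kidneys of Rarres2 and Slc38a3 lie above, and those of Tfpi2 below, all water kidneys while their liver groups overlap.

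Several liver responses lay outside lipid oxidation. Retsat, retinol saturase, was at 312, 398, 241 and 537 CPM in water livers and 674, 1180, 1066 and 801 CPM in NMN livers, with kidney levels of 184 to 220 and 178 to 200 CPM. The liver effect was 1.32 ± 0.20 (adjusted p = 0.00299, edgeR), the kidney effect -0.10 ± 0.20 and the difference 1.42 ± 0.28 (adjusted p = 0.0724). Scara5, a ferritin receptor, stood at 10.7, 5.97, 5.79 and 5.11 CPM in water livers and 40.2, 24.9, 20.2 and 30.9 CPM in NMN livers. Its liver effect of 2.08 ± 0.27 passed (adjusted p = 0.00113, edgeR), beside 0.33 ± 0.30 in kidney at 1.26 to 2.77 CPM, and the difference did not pass (adjusted p = 0.235). Fbf1, a protein of the ciliary base, rose in liver by 1.59 ± 0.23 (adjusted p = 0.00217, edgeR) at a kidney effect of 0.00 ± 0.21. Tacc2, a centrosomal protein, rose in liver by 1.15 ± 0.17 and 1700028E10Rik, an uncharacterized gene, by 1.22 ± 0.19 (adjusted p = 0.00299 for each, edgeR), with kidney effects of 0.11 and -0.33. Retsat and 1700028E10Rik overlap genes on the other strand, and reads within the shared stretches were ambiguous and not counted.

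Of the 20 leading genes 6 fell in liver, Blnk among them. Apoa4, an apolipoprotein of triglyceride-rich particles, stood at 77.4, 89.7, 123 and 80.5 CPM in water livers and 37.7, 43.4, 39.7 and 50.6 CPM in NMN livers, and at 5.38 to 7.39 CPM in all kidneys. The liver groups did not overlap and the kidney groups did. The liver effect was -1.11 ± 0.15 (adjusted p = 0.00127, edgeR), the kidney effect -0.09 ± 0.16. Sulf2, a heparan sulfatase, fell by 0.90 in liver, Slc23a1, a vitamin C transporter, by 0.69, Clic5, an intracellular chloride channel protein, by 1.14 and 3110082I17Rik by 1.76, all with adjusted p between 0.0104 and 0.0393 (edgeR). Their kidney effects lay between -0.08 and 0.23, and none of the differences passed. The liver call of Clic5 was lost without the 3 libraries that stood apart (adjusted p = 0.0532, edgeR), and in limma voom those of Blnk (0.0645), Sulf2 (0.194), Slc23a1 (0.097) and Clic5 (0.516) were lost. Apoa4, Sulf2 and 3110082I17Rik overlap genes on the other strand, so their counts leave out the ambiguous reads of the shared stretches.

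Over all 42 genes that rose in liver the median liver effect was 1.11 and the median kidney effect 0.148. For the 29 that fell the medians were -1.14 and -0.147. The kidney value had the sign of the liver value for 31 of the 42 and 23 of the 29, where 60% of all genes had the same sign in both organs. It was within 0.3 of 0 on the log2 scale for 30 and 23, where 85.9% of all genes were. Of these genes 4 of the 42 (Fkbp5, Fosl2, Junb and Sesn2) and 4 of the 29 (Gm15318, Hcn3, Slc46a3 and Umps) had an unadjusted kidney p under 0.05, all with the liver's sign, where 4.18% of all genes had such a kidney p.

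In the kidney the 3 genes that passed were near 0 in the liver. Rarres2, which encodes the chemoattractant and adipokine chemerin, was at 15, 15.2, 11.9 and 18.9 CPM in water kidneys and 27.2, 28.6, 35.3 and 26 CPM in NMN kidneys. In the livers, where it is far more abundant, it was at 445 to 538 CPM with water and 362 to 515 CPM with NMN. The NMN kidneys lay above all water kidneys, and the liver groups overlapped. The effect was 0.94 ± 0.15 in kidney (adjusted p = 0.0238, edgeR) and -0.10 ± 0.14 in liver, and the difference of -1.04 ± 0.21 had an adjusted p of 0.0724. Tfpi2, an inhibitor of serine proteases of coagulation and matrix, was at 16.2, 9.95, 11.3 and 10.6 CPM in water kidneys and 7.16, 4.36, 5.91 and 5.46 CPM in NMN kidneys. It fell in kidney (-1.07 ± 0.17, adjusted p = 0.0238, edgeR) and had a liver effect of 0.09 ± 0.15, and the difference of 1.16 ± 0.23 did not pass (adjusted p = 0.0724, edgeR). Akr1c13, an aldo-keto reductase, was at 6.64 to 8.09 CPM in water kidneys and 12.4 to 14.4 CPM in NMN kidneys (0.78 ± 0.13, adjusted p = 0.0391, edgeR), at a liver effect of 0.05 ± 0.12, and its difference of -0.73 ± 0.18 did not pass (adjusted p = 0.286, edgeR). Each of the 3 calls was lost when some single libraries were left out, with adjusted p up to 0.133. In separate fits that of Tfpi2 was lost (adjusted p = 0.0515, edgeR), and those of Rarres2 (0.0328) and Akr1c13 (0.0482) held. Rarres2 overlaps Lrrc61 on the other strand and Akr1c13 has close paralogs.

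Slc38a3, the glutamine transporter that feeds renal ammonia production, stood at 45.2, 50.1, 50.8 and 47.3 CPM in water kidneys and 125, 120, 84 and 85.7 CPM in NMN kidneys. In liver it stood at 934, 1822, 2011 and 2201 CPM with water and 1430, 1362, 1295 and 1681 CPM with NMN. The kidney groups were far apart and the liver groups overlapped, with water liver replicate 1 the lowest library. The kidney effect of 1.10 ± 0.20 had an adjusted p of 0.0551 and the liver effect of -0.27 ± 0.20 one of 0.625 (edgeR). In kidney it passed in separate fits (0.00347), in limma voom (0.0201) and without the 3 libraries that stood apart (0.0132). The difference was -1.37 ± 0.28 (adjusted p = 0.102), and without the 3 libraries that stood apart it was -1.64 (adjusted p = 0.00193, edgeR). Glud1, glutamate dehydrogenase, the next step of that route, was at 409 to 480 CPM in water kidneys and 516 to 729 CPM in NMN kidneys, an effect of 0.46 ± 0.12 that did not pass (adjusted p = 0.482, edgeR), beside -0.02 ± 0.12 in liver. Ugt1a1, the bilirubin glucuronosyltransferase, had 6, 2, 7 and 8 reads in water kidneys and 19, 96, 24 and 78 in NMN kidneys. It passed the filter through the NMN kidneys alone and shares exons with the other Ugt1a genes, so its kidney effect of 3.36 ± 0.56 (adjusted p = 0.0551, edgeR) is uncertain.

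Markers of other cells moved in the kidney as well. The 8 markers of loop and distal tubule summed to 5767, 5863, 5411 and 5818 CPM in the NMN kidneys and to 4681, 4933, 4640 and 4251 CPM in the water kidneys. The 10 markers of proximal tubule summed to 23650, 18110, 22420 and 22220 CPM with NMN and to 31280, 24150, 25060 and 29920 CPM with water. The distal sum was higher and the proximal sum lower in every NMN kidney (p = 0.0286 each, the smallest that the exact two-sided permutation test of 4 against 4 can give). Kap made up 59.4% of the proximal sum and Umod 35.6% of the distal one. The hepatocyte markers, none of which is at 0 in kidney, had 9 of 10 above 0 there with a median of 0.293, and the test of their sum gave an exact permutation p of 0.371. In bulk samples fewer cells of a type and less RNA per cell cannot be told apart, and the part of these shifts in the kidney results was not tested.

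Opposite directions were few. C9, the pore-forming component of complement, was the only gene whose difference passed with opposite signs. It stood at 1160, 995, 854 and 910 CPM in water livers and 948, 717, 607 and 782 CPM in NMN livers, an effect of -0.36 ± 0.14 (adjusted p = 0.327, edgeR). In the kidneys it had 9, 6, 7 and 4 reads with water and 13, 16, 21 and 19 with NMN, or 0.192 to 1.12 CPM, an effect of 1.55 ± 0.28 (adjusted p = 0.0551, edgeR). The difference was -1.91 with a 95% interval of -2.57 to -1.24 (adjusted p = 0.0487, edgeR; exact permutation p = 0.00122). The call for the difference held in 4 of the 16 fits that left out 1 library, with an adjusted p of up to 0.146 (edgeR), and was lost with DESeq2's size factors (0.0505) and in limma voom (0.24). All NMN kidneys lay above all water kidneys, and the liver groups overlapped. No water kidney had 10 reads, so C9 passed the filter through the NMN kidneys only, and with a minimum of 10 reads in every library it was not tested.

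Blnk, an adaptor of the B-cell receptor, was the gene of the 20 leading ones whose groups did not overlap in either organ and ran in opposite directions. It was at 1.16, 2.35, 1.33 and 3.2 CPM in water livers and 0.718, 0.499, 0.17 and 0.195 CPM in NMN livers, and at 9.91 to 11.5 and 11.7 to 14 CPM in water and NMN kidneys. The liver effect was -2.36 ± 0.40 (adjusted p = 0.00727, edgeR), the kidney effect 0.22 ± 0.24, and the difference -2.57 ± 0.47 (adjusted p = 0.0724). It had 11, 26, 14 and 35 reads in the water livers and 7, 6, 2 and 2 in the NMN livers, so it passed the liver filter through the water livers only, where it was high. Of all genes 4 had such opposite groups without overlap (0.0335%), namely Blnk, Renbp, Tubgcp2 and Mcm8. There were 13 genes (0.109%) that had opposite signs with an unadjusted p under 0.05 in each organ. They include Renbp, the renin-binding protein, at 0.68 in liver and lower in kidney, from 53 to 37.9 CPM, Bhlhe40 and Ebp, named with their lists. Renbp was named after its values were seen.

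The genes whose mean effect over both organs passed were led by Fkbp5, a co-chaperone of the glucocorticoid receptor and one of its targets. It was at 41.9, 100, 63.6 and 72.4 CPM in water livers and 198, 234, 181 and 143 CPM in NMN livers. In kidney it was at 93.7, 82.5, 56.4 and 83.2 CPM with water and 163, 189, 132 and 121 CPM with NMN. No group overlapped its control in either organ. The effect was 1.44 ± 0.23 in liver (adjusted p = 0.00541, edgeR) and 0.94 ± 0.22 in kidney (adjusted p = 0.471, but 0.0442 in limma voom and 0.0237 in DESeq2), and the mean over the organs was 1.19 (adjusted p = 0.00894). The difference of 0.50 had an interval of -0.16 to 1.17, so equal effects and a larger effect in liver both lay within it. Fkbp5 passed for the mean in each of the 16 fits that left out 1 library. Of the other genes named for the mean by the rule on its p, Paqr7 did so in 15, Akap12 and Junb in 13, Vwa1 in 12, Fosl2 in 11, Gm15318 in 10 and Umps in 8.

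The mean effect over both organs passed for 44 genes, 29 higher and 15 lower with NMN (0.369% of those tested). All 44 had the same sign in both organs, where 60% of all genes did. Effects of opposite sign cancel in the mean, so picking genes by their mean favours the same sign. The count of same signs is therefore no test of whether the organs responded alike. Of the 44 genes, 22 had an unadjusted p under 0.05 in each organ. Another 20 had it in liver only, among them Il1r1, Cyp4a10 and Apoa4. Without the 3 libraries that stood apart 143 genes passed for the mean. Over all genes 93 (0.78%) had the same sign with an unadjusted p under 0.05 in both organs, and 30 (0.251%) had no overlap in either organ in the same direction.

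Among the genes that passed for the mean with effects above 0, Akap12, a scaffold of protein kinase A, was at 1.91 to 2.44 CPM in water livers and 3.4 to 5.65 CPM in NMN livers, and at 10.2 to 17.2 and 17.3 to 36.9 CPM in the kidneys. Its effects of 0.93 ± 0.28 in liver and 1.05 ± 0.22 in kidney passed in neither organ (adjusted p = 0.162 and 0.174, edgeR). The kidney effect of Akap12 passed in limma voom (adjusted p = 0.025) and in DESeq2 (0.0142). Its mean was 0.99 (adjusted p = 0.0218, edgeR) and its difference lay within -0.87 to 0.64. Junb and Fosl2, subunits of the AP-1 transcription factor, had effects of 1.27 and 1.03 in liver, which passed, and of 0.78 and 0.67 in kidney, which did not, with means that passed at an adjusted p of 0.0218 each (edgeR). The liver call of Fosl2 was lost without the 3 libraries that stood apart (adjusted p = 0.0559, edgeR), and in limma voom those of Junb (0.101), Fosl2 (0.184) and Sesn2 (0.571) were lost. The Junb groups overlapped in kidney and Prdx2 overlaps the gene on the other strand. Sesn2, a stress-induced regulator of growth signalling, rose in liver by 0.88 ± 0.19 (adjusted p = 0.0393, edgeR), stood at 0.44 ± 0.17 in kidney and passed for the mean (0.66, adjusted p = 0.0233, edgeR).

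Of the genes that passed for the mean with effects below 0, Paqr7, a membrane progesterone receptor, was at 56.9, 74.2, 53.1 and 76.6 CPM in water livers and 51.1, 43.4, 50.1 and 40.2 CPM in NMN livers. In kidney it was at 90, 71, 75.9 and 95.3 CPM with water and 55, 49.5, 57.6 and 51.2 CPM with NMN. The groups did not overlap in either organ, and the effects of -0.50 ± 0.14 in liver and -0.64 ± 0.13 in kidney passed in neither organ (adjusted p = 0.124 and 0.174, edgeR) but in both in DESeq2 (0.0391 and 0.0153), with a mean of -0.57 (adjusted p = 0.0187, edgeR). Umps, which makes uridine monophosphate, had effects of -0.58 and -0.27 and a mean of -0.42. Vwa1, a matrix protein, had a mean of -0.95, and Gm15318, an uncharacterized gene, one of -0.79. The means of these 3 passed at an adjusted p of 0.0218 each (edgeR). Umps and Gm15318 passed in liver (0.0204 and 0.0456, edgeR, but 0.0607 and 0.326 in limma voom). Vwa1 did not (0.056, edgeR), though it did in DESeq2 (0.0304). None of the 3 passed in kidney in edgeR (0.664 or more), while Vwa1 did in limma voom (0.025). Vwa1 and Umps did not overlap between groups in either organ. Vwa1 had 19, 14, 12 and 11 reads in water livers and 4, 5, 10 and 4 in NMN livers, so it passed the liver filter through the water livers, where it was high. Without the 3 libraries that stood apart it no longer passed (adjusted p = 0.0607, edgeR). All 3 overlap genes on the other strand.

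**Figure D3:**
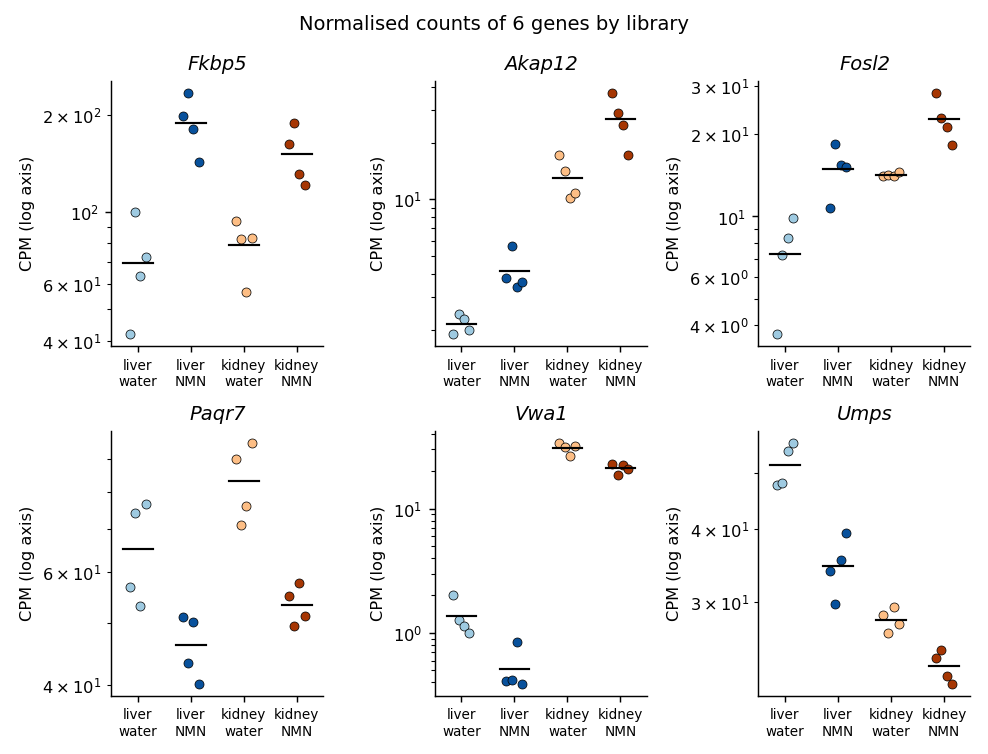
Normalised counts (CPM, log axis) of 6 genes in the 16 libraries, each point 1 library and each bar the mean of 4. In Fkbp5, Akap12 and Fosl2 the NMN libraries of both organs lie above their water libraries, and in Paqr7, Vwa1 and Umps they lie below.

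Glucocorticoid-responsive genes had like medians in the organs, 0.398 in liver and 0.468 in kidney over 24 genes, with 21 above 0 in each, where 47.4% and 50.1% of all genes were. Of the 24, only Fkbp5 passed in liver, where 0.595% of all genes did, and 0 passed in kidney, where 0.0251% did. The median difference was -0.0875, and it turned to 0.142 without the 3 libraries that stood apart. Zbtb16, a zinc finger repressor induced by glucocorticoids, had effects of 3.09 in liver and 3.17 in kidney and passed for the mean. Immediate early genes, which answer acute stimuli within minutes, had medians of 0.662 and 0.579 over 16 genes, with 13 and 14 above 0. Per1, which is both a clock gene and a glucocorticoid target, was at 0.02 ± 0.34 in liver and 0.99 ± 0.34 in kidney, where NMN replicate 1 stood at 140 CPM and the other NMN kidneys at 40 to 74.3, and the difference did not pass. Without the 3 libraries that stood apart the medians of glucocorticoid-responsive genes were 0.647 in liver and 0.468 in kidney. Those of immediate early genes were 0.939 and 0.915. In that fit 2 genes of each list passed in liver, where 1.76% of all genes did.

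The NMN effects on genes of fat and sterol synthesis had lower medians in liver than in kidney. For fatty acid synthesis the median was -0.325 in liver, with 17 of 22 genes below 0, and 0.024 in kidney, and the median difference was -0.326. For cholesterol synthesis it was -0.483 in liver, with 24 of 25 below 0, and -0.139 in kidney, and the median difference was -0.401. In edgeR's fit no gene of either list passed in either organ or for the difference, where 0.595%, 0.0251% and 0.0168% of all genes did. Without the 3 libraries that stood apart 1 of each list passed in liver (1.76% of all genes) and 0 for the difference (0.386%). Scd1, which desaturates stearate, stood at 2534, 5974, 5354 and 4542 CPM in water livers and 3329, 2479, 3776 and 2088 CPM in NMN livers, effects of -0.66 ± 0.32 in liver and 0.64 ± 0.32 in kidney. Thrsp, a lipogenic regulator, was lower in all NMN livers, 82 to 207 CPM against 312 to 814, an effect of -2.05 ± 0.55 that did not pass (adjusted p = 0.149, edgeR), and in kidney 3 of the 4 NMN libraries stood at 2.94 to 4.14 CPM and replicate 3 at 18.2. Acly, Ebp and Stard4 had differences of -0.77, -0.56 and -0.74, with Ebp, a sterol isomerase, higher in all NMN kidneys (76.7 to 83.8 CPM against 57.9 to 74.5).

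**Figure D4:**
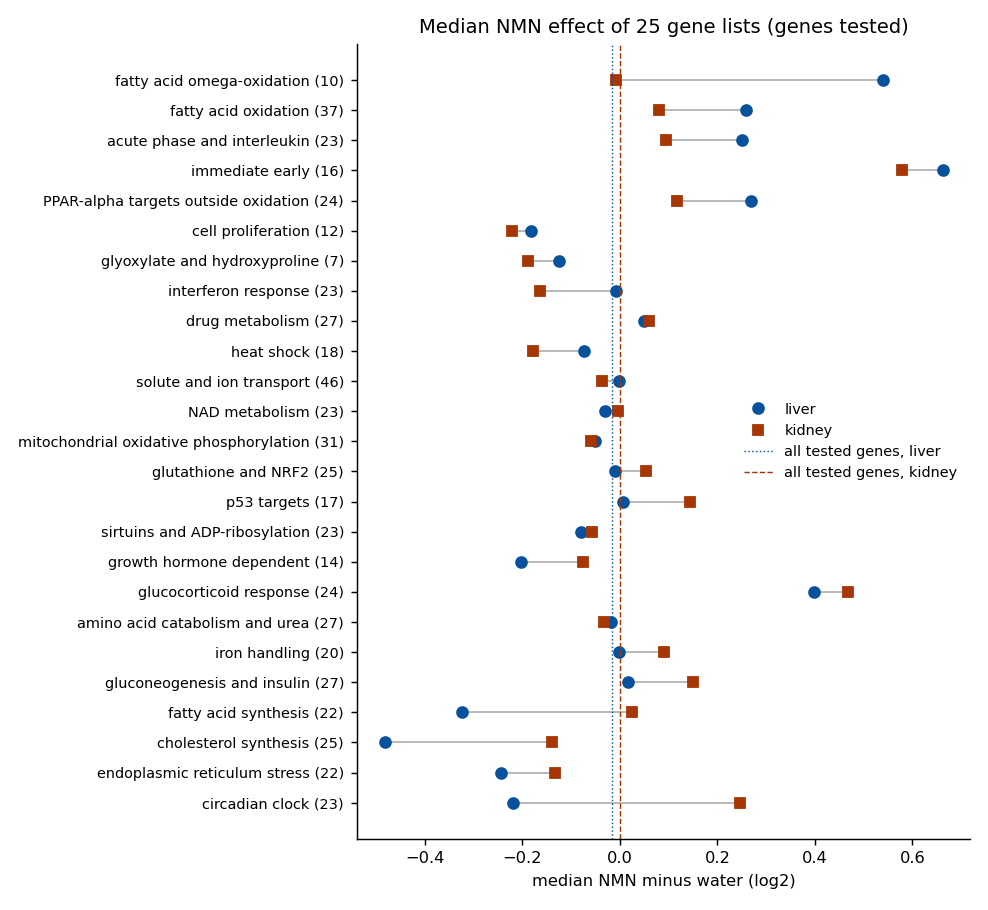
Median NMN effect (NMN minus water, log2) of 25 gene lists in liver (circles) and in kidney (squares), with the number of genes tested in brackets and the medians over all tested genes as vertical lines; lists are ordered by their median difference between the organs. The medians of fatty acid omega-oxidation and oxidation lie higher in liver, those of cholesterol synthesis, fatty acid synthesis and the circadian clock lie lower in liver, and those of the glucocorticoid and immediate early lists lie high in both.

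Arntl, Dbp and Nr1d1 differed between libraries of the same group. Arntl stood at 19.7, 19.7, 20.4 and 3.61 CPM in the NMN livers and at 5.65, 6.32, 6.87 and 4.09 CPM in the NMN kidneys. Dbp, an output factor of the clock that peaks when Arntl is low, stood at 0.847, 128, 187 and 175 CPM in water livers and 8.31, 5.57, 25 and 163 CPM in NMN livers. In kidney Dbp stood at 5.3, 54.9, 44.5 and 63.5 CPM with water and 54.9, 47.3, 68.9 and 85.8 CPM with NMN. NMN livers 1 to 3 thus had high Arntl and low Dbp, as water liver and water kidney replicate 1 had, while NMN liver replicate 4 and the NMN kidneys had the reverse. Nr1d1, the repressor REV-ERB-alpha, which overlaps Thra on the other strand, was at 5.51 CPM in water liver replicate 1 and 75.2 to 181 CPM in the other livers. The time of day of collection is not given in the sources used here, and its part in these values was not tested.

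As groups, the 23 clock genes tested had a median of -0.22 in liver, with 9 above 0, and 0.247 in kidney, with 18 above 0, a median difference of -0.499. In edgeR's single fit of all 16 libraries none passed in either organ or for the difference. In that fit 0.595% of all genes passed in liver, 0.0251% in kidney and 0.0168% for the difference. In separate fits 1 clock gene passed in kidney. When the 3 libraries that stood apart were left out, 11 of the 23 passed in liver, 0 in kidney and 5 for the difference. In that fit 1.76%, 0.0335% and 0.386% of all genes did. Bhlhe40, a clock-controlled repressor, was at 64.9, 259, 252 and 184 CPM in water livers and 99.6 to 144 CPM in NMN livers, and at 56.5 to 77.2 CPM in water kidneys and 98.5 to 148 CPM in NMN kidneys. Only the kidney groups did not overlap, and in separate fits the kidney effect of Bhlhe40 passed (adjusted p = 0.0462, edgeR). Its difference of -1.41 ± 0.42 did not pass (adjusted p = 0.64, edgeR). With the 3 libraries that stood apart left out, the difference was 2.51 for Arntl (adjusted p = 0.0199) and -3.89 for Dbp (adjusted p = 0.027, edgeR), and that of Bhlhe40 had an adjusted p of 0.00208 (edgeR), but 2 of these libraries were picked by their Arntl level, so these values and counts of clock genes are a description.

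**Figure D5:**
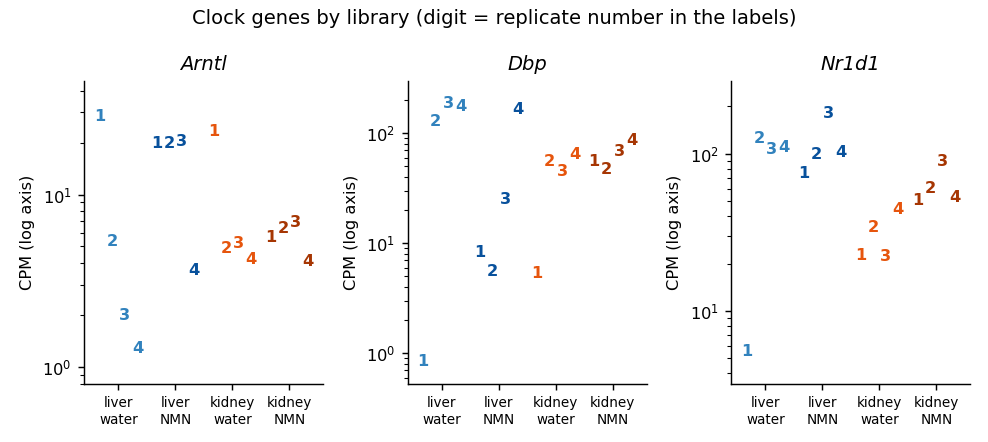
Normalised counts (CPM, log axis) of Arntl, Dbp and Nr1d1 in the 16 libraries, each digit the replicate number of 1 library in its group. Replicate 1 of water liver and of water kidney stands high for Arntl (28.5 and 23.3 CPM) and low for Dbp (0.847 and 5.3 CPM), and NMN livers 1 to 3 lie near it for Arntl while NMN liver 4 does not.

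NAD+ metabolism, the pathway that NMN enters, had no gene that passed in either organ or for the difference. Of all genes 0.595% passed in liver, 0.0251% in kidney and 0.0168% for the difference. Over the 23 genes of NAD+ metabolism the medians were -0.0311 in liver and -0.00442 in kidney. Nampt, which makes NMN from nicotinamide, stood at 36.8, 44.6, 86.2 and 58.7 CPM in water livers and 45.7, 55.5, 36.4 and 55.8 CPM in NMN livers, and at 97.3 to 123 CPM in water kidneys and 129 to 157 CPM in NMN kidneys. Its kidney groups did not overlap and its liver groups did, with effects of 0.42 ± 0.19 and -0.23 ± 0.20 and a difference of -0.64 ± 0.28 (adjusted p = 0.945, edgeR). Nmrk1, a kinase of the nicotinamide riboside route, had effects of -0.54 ± 0.27 in liver and -0.17 ± 0.25 in kidney. Nnmt, which methylates nicotinamide for excretion, stood at 102 to 356 CPM in livers and 0.595 to 1.39 CPM in kidneys, with effects of -0.07 ± 0.32 and 0.44 ± 0.54. Adprh, an ADP-ribosylarginine hydrolase, was the only gene of the sirtuin and ADP-ribosylation list of 23 to pass in an organ. It passed in liver, where it fell by 0.88 (adjusted p = 0.0371, edgeR), beside 0.04 ± 0.17 in kidney. Of all genes 0.243% fell in liver. The call of Adprh was lost without the 3 libraries that stood apart (adjusted p = 0.105, edgeR), in limma voom (0.282) and in separate fits (0.326). Sirt1 had effects of 0.70 ± 0.24 and -0.09 ± 0.23, and neither passed.

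Transport and osmolyte genes were mixed. Of 46 solute and ion transporters 23 were above 0 in liver and 20 in kidney. In edgeR's single fit 0 of them passed in either organ, where 0.595% and 0.0251% of all genes did. The counts were 2 in liver, 1 in kidney and 2 for the difference without the 3 libraries that stood apart, where 1.76%, 0.0335% and 0.386% of all genes passed. Slc5a3, the sodium-coupled inositol transporter, stood at 126 to 157 CPM in water kidneys and 161 to 257 CPM in NMN kidneys, without overlap, and Miox, which breaks down inositol in the proximal tubule, stood at 1476 to 1659 CPM and 896 to 1402 CPM, also without overlap. The kidney effects were 0.55 ± 0.25 and -0.50 ± 0.15, and neither passed in edgeR's single fit. In limma voom that of Miox passed (adjusted p = 0.0389). Slc5a3 in liver was at 2.54 to 10.1 CPM with an effect of 0.46 ± 0.30, so its difference between organs was -0.09 with an interval of -0.92 to 0.74. Slc20a1, a phosphate transporter, had effects of -0.60 in liver and 0.39 in kidney, and the difference of -0.99 ± 0.32 did not pass (adjusted p = 0.714, edgeR).

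The endoplasmic reticulum stress list had the second lowest median difference, -0.429 over 22 genes, with 2 above 0. Asns, asparagine synthetase, was at 3.22 to 4.31 CPM in water kidneys and 5.67 to 13.9 CPM in NMN kidneys, and Atf5, a transcription factor of the amino acid response, at 10.5 to 13 CPM and 14.1 to 24.8 CPM. Neither kidney effect passed (1.37 ± 0.36 and 0.74 ± 0.21, adjusted p = 0.481 and 0.576, edgeR), though that of Asns did in limma voom (0.0442), and their liver effects were -0.38 ± 0.41 and -0.14 ± 0.20. The list rested on the libraries that stood apart, since without them its median in liver was 0.137 in place of -0.244 and in kidney 0.214 in place of -0.134, and its median difference -0.165.

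At the other schedule, 2680 mg/kg/d with 3 libraries a group, the difference between organs was measured in other mice for all 20 leading genes. Of these 19 had the same sign and 7 of them passed, where 4.55% of the 11919 genes tested there did. The exception was Scara5, with an effect of 0.24 in liver and a difference of -0.06. C9 was not tested there. Among the genes named for the mean of both organs, Umps had effects of -0.88 in liver and 0.10 in kidney and Gm15318 of -2.21 and -0.69, and both differed between the organs there (adjusted p = 0.0367 and 0.0256, edgeR). Junb stood at 0.04 in liver and 0.27 in kidney. The difference for Il1r1 was 1.08 ± 0.26 (adjusted p = 0.0363, edgeR), from 1.12 in liver and 0.04 in kidney.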

How the data were processed

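RNA was sequenced from polyA-selected libraries of liver and kidney, and 16 libraries were used, 4 for each organ and treatment. Each deposited table holds raw counts of 1 library, whole numbers for each gene that the authors obtained by STAR alignment and HTSeq counting, unstranded and in strict intersection mode. The build the study names could not be matched to a mouse assembly, and of 54446 gene IDs 53229 matched GENCODE M21 with their version, 1180 without it and 37 not. Lines that name no gene (reads outside genes, ambiguous or multimapped) were left out of library sizes; reads outside genes were 4.906 to 12.77% of a library.

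Counts were fitted in R 4.3.3 with edgeR 4.0.16, as a means model of the 4 groups over the 16 libraries with TMM scaling and robust quasi-likelihood estimates. Genes had to pass filterByExpr (minimum count 10) within each organ, which left 11929. The contrasts were the difference between organs, the effect in each organ and the mean of both, with Benjamini-Hochberg adjustment over all tested genes and a threshold of 0.05. SE is the log2 effect over the square root of F. The permutation tests were exact and two-sided, on log2(CPM + 1), with treatment relabelled within each organ (4900 relabellings for the difference, smallest p 0.000408). The study's own article describes its samples as biological replicates, and p-values measure the spread between these samples. The reads carry no molecular identifiers and are not independent molecules.

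Alternatives were DESeq2 1.42.0 on the same counts, limma 3.58.1 voom with organ weights, separate fits per organ, other scalings and filters, estimates that were not robust, a replicate block, 1 fit of all 28 libraries, thinned counts and each library left out in turn. Named genes were the 10 with the smallest p for the difference in each direction at 1 CPM or more in both organs, the 4 with the smallest p for the mean in each direction among genes with the same sign and an unadjusted p under 0.05 in both organs, up to 8 genes of opposite response, the 2 genes of each of 25 lists with the smallest p for the difference, and some genes set by name. The members, lists and tests were chosen with earlier results of these data known. The tests were tried on simulated data first. For the difference, false calls were 10 of 140 with edgeR, 24 of 171 with DESeq2 and 9 of 129 with limma voom. Promoter sequences came from RefSeq, with entries for 29 of 41 genes looked up.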

Additional observations from a re-analysis of the deposited data

Results flagged for a closer look

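Il1r1 and C9 had effects that differed between the organs by the test of the difference itself, 1.75 and -1.91 on the log2 scale (edgeR). C9 passed the filter in kidney only through the NMN kidneys, where it was high, so its difference is not independent of the filter. For Blnk, -2.57, every NMN liver lay below and every NMN kidney above the water libraries. Its difference did not pass (adjusted p = 0.0724, edgeR), and it passed the filter in liver only through the water livers, at 11, 26, 14 and 35 reads against 7, 6, 2 and 2.

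In 22 of 336 groups of 4 libraries, 1 library stood far from the other 3, where chance alone gives about 1 in 20 groups. In water liver replicate 1 these were Scara5 at 10.7 CPM (the others at 5.11 to 5.97), Nr1d1 at 5.51 (106 to 125) and Arntl at 28.5 (1.28 to 5.34). In water kidney replicate 1 they were Arntl at 23.3 CPM (4.18 to 5.21), Clock at 57.8 (44.7 to 45.1), Pdk2 at 182 (213 to 219), Atf5 at 13.0 (10.5 to 10.7) and Akr1c13 at 6.64 (8.02 to 8.09). In NMN liver replicate 4, Arntl stood at 3.61 CPM (19.7 to 20.4) and Dbp at 163 (5.57 to 25). NMN kidney replicate 3 was set apart by Thrsp at 18.2 CPM (2.94 to 4.14), Myc at 8.58 (3.49 to 3.88), Nampt at 129 (155 to 157) and Adprh at 18.9 (12.8 to 13.8), and NMN kidney replicate 2 by Cyp4a14 at 253 (90.9 to 109) and Clock at 55.2 (47.5 to 47.9). Single genes stood apart in NMN kidney replicate 1 (Aldh3a2, 178 CPM against 138 to 141), in NMN liver replicate 1 (Clic5, 2.87 against 1.41 to 1.62, and Cryab, 4.93 against 2.34 to 2.74), in NMN liver replicate 3 (Vwa1, 0.851 against 0.391 to 0.416), in water kidney replicate 2 (Afmid, 29.6 against 32.4 to 32.5) and in water kidney replicate 4 (Mup3, 11.5 against 7.63 to 8.23).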

How the results depend on the processing

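For the difference between organs, 2 genes in the fit described, 0 genes passed with DESeq2's size factors, 0 with upper quartile factors and 0 with a minimum of 10 counts in every library, where 621, 624 and 532 had an unadjusted p under 0.05. There were 27 with DESeq2's own test, 34 with separate fits per organ, 7 with all 28 libraries in 1 fit, 1 with thinned counts, 620 without adjustment and 46 without the 3 libraries that stood apart. DESeq2 placed 19 genes in liver only, 6 in kidney only and 2 in opposite directions. Leaving out each library in turn gave 0 to 11. In liver, 71 became 222 with DESeq2, 24 with limma voom, 2 with separate fits, 1351 without adjustment, 210 without the 3 libraries and 22 (without NMN liver replicate 2) to 150 (without NMN liver replicate 4) with each library left out. In kidney, 3 became 19 with DESeq2, 30 with limma voom, 8 with separate fits, 6 without a filter, 499 without adjustment and 0 to 4 with each library left out, with 0 in 3 of 16 fits. For the mean of both organs, 44 became 199 with DESeq2, 240 with separate fits, 83 with all 28 libraries, 1416 without adjustment, 143 without the 3 libraries and 3 (without NMN kidney replicate 2) to 111 (without NMN liver replicate 4) with each library left out. The causes were not tested. For the contrasts that named the leading, shared and called genes, 498 values were computed under the alternatives other than single libraries, of which 420 kept their sign and side of the threshold, 54 newly passed, 24 no longer passed and 0 changed sign. Over all 81 named genes, leaving out the 3 libraries turned the sign of 6 liver and 7 kidney effects, among them Atf5 and Cyp4a12a in liver (to 0.16 and 0.30) and Arntl in kidney (to 0.28), and of 0 differences. Il1r1 had an adjusted p of 0.0505 with DESeq2's size factors, and C9 of 0.24 with limma voom.

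The replicate numbers were not taken as pairing the samples. Same-numbered water livers and kidneys deviated together in all 4 pairs (correlations of 0.129 to 0.354), but NMN livers and kidneys did so above 0.1 in 2 of 4 (-0.0117 to 0.244), and the correlations were -0.044 to 0.19 between treatments in liver and -0.172 to 0.252 in kidney. All 4 water livers and 2 of 4 NMN livers correlated best with the kidney of their own number, a hint from the data and not from the design. With the replicate block 2 genes passed for the difference (C9 and Cyp4a10, Il1r1 at an adjusted p of 0.0628 by edgeR) and 1 in kidney in place of 3. With treatment and number taken as 1 mouse, a replicate block across organs, 5 passed for the difference (Il1r1, Cyp4a10, Cyp4a12a, Gm4952 and Plin4), and C9 did not (adjusted p = 0.0507, edgeR).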

Other observations

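Of 4 genes from lists not described above, Ddo and Cyp2u1 passed in liver in edgeR's single fit, and Cp and Pklr passed in neither organ there. Ddo, D-aspartate oxidase, stood at 20.3, 16.5, 25.4 and 21.5 CPM in water livers and at 12.4, 11.7, 11.5 and 11 CPM in NMN livers. It was lower in every NMN liver and fell there by 0.84 on the log2 scale (adjusted p = 0.00436, edgeR, and 0.114 in limma voom), beside -0.15 ± 0.12 (SE) in kidney. It was the only 1 of the 7 glyoxylate and hydroxyproline genes to pass in liver, where 0.595% of all genes did and the list's median was -0.126, beside -0.188 in kidney. Cyp2u1, a fatty acid hydroxylase, stood at 127, 109, 54.0 and 90.4 CPM in water livers and at 47.5, 29.2, 42.0 and 48.9 CPM in NMN livers, without overlap. It fell in liver by 1.18 (adjusted p = 0.0125, edgeR), beside -0.10 ± 0.22 in kidney. The drug metabolism list of 27 genes that holds Cyp2u1 had medians of 0.0493 in liver and 0.0592 in kidney. Without the 3 libraries that stood apart these were 0.083 and -0.0206. Cp, the plasma ferroxidase ceruloplasmin, stood at 18.2, 28.2, 24.6 and 22.8 CPM in water kidneys and at 33.1, 40.4, 38.3 and 39.0 CPM in NMN kidneys. The kidney groups did not overlap, and the effect of 0.68 ± 0.14 did not pass (adjusted p = 0.15, edgeR), beside 0.14 ± 0.14 in liver. The kidney effect of Cp passed in limma voom (adjusted p = 0.0201) and in DESeq2 (0.00108). The 20 iron genes had medians of -0.0028 in liver and 0.0897 in kidney, which were 0.0773 and 0.173 without the 3 libraries that stood apart. Pklr, liver pyruvate kinase, had an effect of -0.92 ± 0.25 in liver (adjusted p = 0.118, edgeR, and 0.015 in DESeq2) and 0.09 ± 0.25 in kidney. In 6 of the 27 genes of gluconeogenesis and insulin signalling the difference was above 0, with a median of -0.206. Without the 3 libraries that stood apart this median was -0.0917, with 10 above 0. In that fit 4 of the 27 passed in liver, where 1.76% of all genes did. None of these 4 genes passed for the difference between organs (adjusted p = 0.407 for Ddo, 0.51 for Cyp2u1, 0.773 for Cp and 0.749 for Pklr, edgeR).

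In the other lists the median difference between organs was 0.203 for 23 acute phase and interleukin genes, -0.00559 for 25 genes of glutathione and NRF2, -0.0084 for 17 p53 targets, 0.0561 for 18 heat shock genes, -0.0899 for 27 genes of amino acid catabolism and urea, -0.0656 for 14 growth hormone dependent genes, -0.00475 for 31 genes of oxidative phosphorylation, 0.144 for 12 proliferation genes and 0.0974 for 23 interferon response genes. Without the 3 libraries that stood apart the sign turned for acute phase and interleukin genes (-0.0449), glutathione and NRF2 (0.0849), growth hormone dependent genes (0.111) and oxidative phosphorylation (0.0462). The sign held but the value moved for p53 targets (-0.0964), heat shock genes (0.116) and interferon response genes (0.0239). Among markers of other cell types, those of exocrine pancreas summed to 25.6, 11.5, 17.7 and 10.9 CPM in NMN livers and to 51.6, 47.9, 26.2 and 36.3 CPM in water livers. The groups did not overlap (p = 0.0286, exact permutation test, the smallest it can give), Cela1, an elastase, made up 97.1% of the sum, and 4 of the 6 markers were at 0. In the kidneys the same markers summed to 41.6 CPM with NMN and 57.7 CPM with water, with Cela1 at 99.9%. The adipocyte markers summed to 2.36, 2.25, 2.13 and 3.52 CPM in NMN livers and to 1.69, 0.995, 0.95 and 1.83 CPM in water livers, also without overlap (exact permutation p = 0.0286), with 2 of the 5 markers at 0 and Cidec, a lipid droplet protein, making up 53.8% of the sum. The only adipocyte marker tested as a gene had a liver effect of 0.0344. These sums were picked from tests of all cell types in both organs, with no adjustment for their number. The part of either shift in the liver results was not tested.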
